A study of Schizophyllum commune with 6 samples.

Results

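RNA sequencing of mycelium from Schizophyllum commune, the split-gill mushroom, gave values for 14652 gene models. Of these, 88 (0.601%) had a value of exactly 0 in both libraries of the wild-type strain 12-43 and at least 2 RPKM in both libraries of another strain. RPKM counts reads scaled by the length of a model and by the depth of its library. The models were selected on these measured values, so their difference from 12-43 is a description and carries no test. Of the 88 models, 56 (63.6%) reached the limit in strain E6 alone, 5 (5.68%) in the dhc2 strain alone and 27 (30.7%) in both.

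There were 6 libraries in 3 groups, 2 libraries each. The dhc2 group was a strain with the dynein heavy chain gene dhc2 knocked out, of mating type A3,5 and B2,2. Strain E6 was wild type with mating type A4,6 and B2,1. Strain 12-43 was wild type with mating type A3,5 and B2,2, the same as the dhc2 strain. All mycelium grew at 28 °C on solid CYM and then for 3 days on cellophane laid over CYM; the strain labels name monokaryons, whereas the growth protocol speaks of mycelium from a mating interaction. The labels do not say from which strain the knock-out was made, nor whether it is 1 clone, nor whether replicates were separate cultures, so p-values measure the spread between libraries that may be technical replicates.

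Schizophyllum commune mates through its A locus, which encodes homeodomain transcription factors, and its B locus, the source of pheromones and pheromone receptors. A mycelium grown from a single spore is a monokaryon; a compatible mating lets nuclei migrate into the partner and gives a dikaryon. Dynein is the motor that carries cargo, nuclei included, along microtubules, and its heavy chain holds the motor. Strains of this fungus are known for high sequence diversity. An RPKM of 0 says only that no read was assigned to the model: a gene that is not transcribed, a gene that a strain lacks and a gene whose sequence keeps reads from aligning cannot be told apart in these values.

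The denominators recovered from the RPKM values were 14372979 and 13857189 reads in dhc2, 9210239 and 13012283 in E6 and 14054525 and 8769918 in 12-43. The zeros of 12-43 therefore rest on 22824443 reads in all. The labels were checked against the B-locus pheromone receptor gene bbr2, which had 719 and 729 reads in dhc2, 1 and 3 in E6 and 503 and 207 in 12-43. The hydrophobin gene SC3, known from aerial hyphae of monokaryons and dikaryons, was at 4842 and 4704 RPKM in dhc2, 21811 and 23009 in E6 and 10907 and 13868 in 12-43. SC4, a hydrophobin gene known from dikaryons, was at 8.08 and 5.37 RPKM in dhc2, 3.23 and 3.66 in E6 and 251 and 509 in 12-43, high in the group whose zeros chose the models; its part in them was not tested. The targeted gene dhc2 is not reported here, because the tables used do not pair it with an identifier. FastQC lists of enriched short sequences held the same 5-base sequence in both dhc2 libraries and in 12-43 replicate 1, and not in 12-43 replicate 2 or E6; the 12-43 zeros span that division, as the rule requires both libraries to be at 0.

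Depth sets how much a zero says. Expected reads were taken at the level measured in the strains that read the models and at recovered coding lengths. On that basis the 88 models would have given 11.4 to 1016 reads in the 12-43 libraries together, with a median of 86.1. All 88 would have given at least 10 reads, and 67 at least 50. With 3 reads per 12-43 library taken as the floor, their levels were at least 1.79-fold to at least 160-fold higher than in 12-43, with a median bound of 13.6-fold. These bounds allow for counting error in the 12-43 zeros only, and take the level in the reading strains as measured. The lowest expected reads and the lowest bound are those of model 1052521, whose recovered length is uncertain. In all, 1383 models were at 0 in both 12-43 libraries; 937 of them were at 0 in all 6 libraries, and the other 358 that fell short of the limit had a median of 1 read over the dhc2 and E6 libraries together and at most 185.

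**Figure D1:**
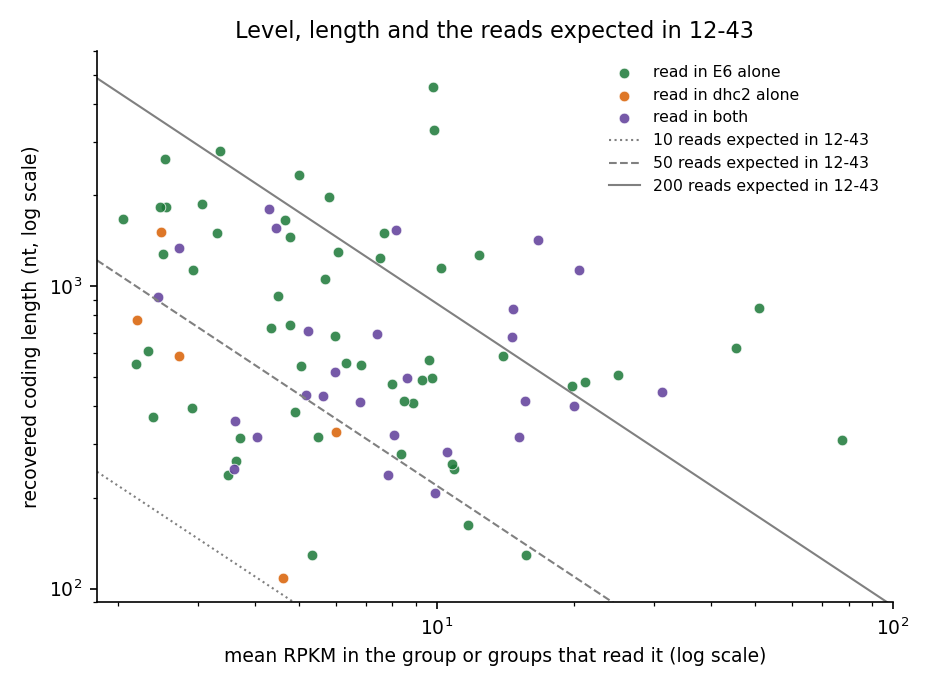
Each point is 1 of the 88 models, placed by its mean RPKM in the group or groups that read it (x axis, log scale) and its recovered coding length in nucleotides (y axis, log scale); colour gives the class. Grey lines mark 10, 50 and 200 reads expected in the 12-43 libraries at that level: all 88 points lie above the line of 10 reads, and 67 lie at or above that of 50.

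The models had short recovered coding lengths and modest levels. Their recovered coding length ran from 108 to 4545 nucleotides with a median of 562.5, against a median of 1113 over all 13715 models read in any library. Mean levels in the strains that read them ran from 2.05 to 77.4 RPKM with a median of 6.00; 22 models reached 10 RPKM and 34 stayed under 5. For scale, the 10996 models with at least 2 RPKM in both dhc2 libraries had a median of 27.2 RPKM. The 10980 such models in E6 had a median of 23.9 RPKM. A rule that asks for no reads in a strain favours short, weakly read models, and the sets compared here carried no such condition. Recovered lengths are the smallest that fit, and the selected models had no reads from that strain to set them. How far the rule or the recovery accounts for the shorter lengths was not tested.

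The limit of 2 RPKM runs through a continuous range. Just inside it were model 1216216 with 2.02 and 2.08 RPKM in E6, model 1063982 with 2.06 and 2.71 RPKM in E6, and model 1088509 with 2.07 and 2.33 RPKM in dhc2. Just outside were model 233900 with dhc2 reads of 64 and 71, its lower dhc2 library falling short of 2 RPKM in the third decimal, model 1216285 with 2.04 and 1.98 RPKM in E6, and model 1316563 with 1.91 and 1.65 RPKM in dhc2.

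Models read in E6 alone formed the largest class, 56 of 88, and held the most abundant member. Model 1060048 had 0.675 and 0 RPKM in dhc2 (3 and 0 reads), 91.4 and 63.4 RPKM in E6 (260 and 255 reads) and 0 in both 12-43 libraries. Model 1192801 had 51.8 and 50.0 RPKM in E6 from 404 and 550 reads, with 1 and 0 reads in dhc2. Model 1172089 had 48.5 and 41.9 RPKM in E6 and no read in dhc2. The E6 libraries stood far above the dhc2 and 12-43 libraries in each of these 3 models.

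The next models by level were 1104817 with 26.2 and 23.8 RPKM in E6, 1201547 with 20.2 and 22.0 and 1174848 with 20.6 and 18.9. Dhc2 reads were absent for 1104817 and 1174848 and numbered 1 and 2 for 1201547. Models 1190099, 1152377, 1153784 and 1051573 completed the 10 most abundant of this class, with E6 means of 15.7, 14.0, 12.4 and 11.7 RPKM and no dhc2 read. These 10 models split into 7 with no dhc2 read and 3 with 3 reads or fewer over both dhc2 libraries. Among lower levels, long models still gave many reads: model 1337536, with a coding length of 4545 nucleotides, had 440 and 537 reads in E6 and none in dhc2 or 12-43, and model 1160694, at 3285 nucleotides, had 335 and 371 in E6 with 1 in each dhc2 library.

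Over the whole class, 29 of the 56 models had no read in either dhc2 library, while E6 gave them 15 to 977 reads with a median of 93. A further 18 had 1 to 3 dhc2 reads in all, at or under the floor. The other 9 had 4 to 42 dhc2 reads, and 6 of these reached 2 RPKM in 1 dhc2 library but not in the other. Model 1207424 had 1 and 27 reads in dhc2, against 12 and 13 in E6, and model 1316463 had 6 and 20 in dhc2, against 16 and 38 in E6. In 1207424 the dhc2 replicates lay on either side of both E6 libraries, so it falls in the class only because of dhc2 replicate 1. Models 1173451 with 13 and 17 dhc2 reads, 1262236 with 11 and 7, 1128665 with 23 and 19 and 1120618 with 8 and 9 were read steadily in dhc2 at a level just around the limit. The class holds models without dhc2 reads beside a few whose dhc2 level sat at the limit of the rule.

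**Figure D2:**
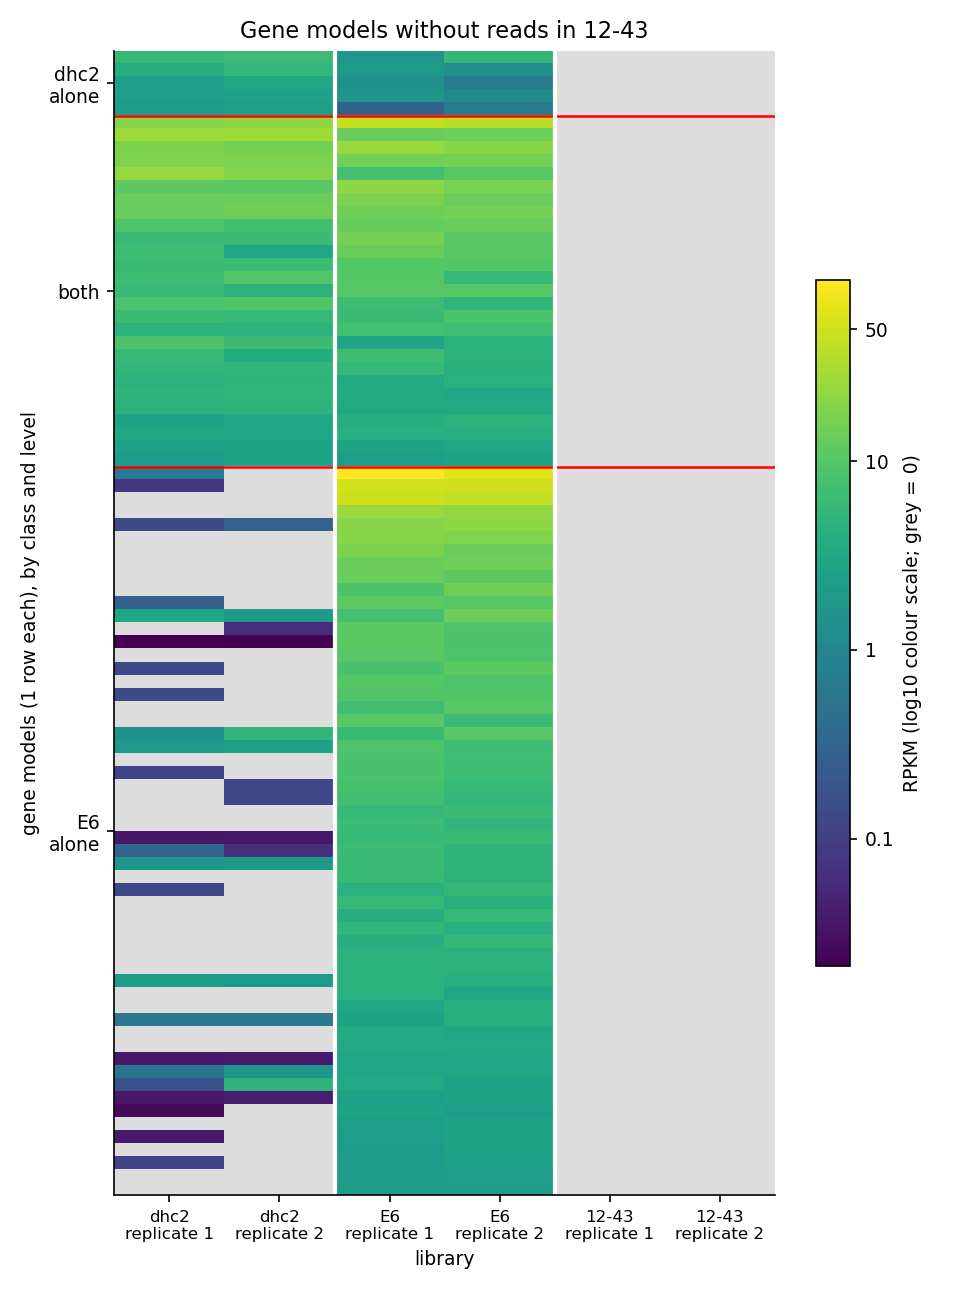
Rows are the 88 models, ordered by class and then by level, and columns are the 6 libraries; colour is RPKM on a log10 scale and grey is a value of 0. The 12-43 columns are grey throughout because the rule requires it, and 29 of the 56 rows of the class read in E6 alone are grey in both dhc2 columns as well.

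Only 5 models were read in dhc2 alone by the rule, and each of them also had E6 reads, 4 to 46 in all. Model 1055743 had 5.69 and 6.34 RPKM in dhc2 (27 and 29 reads), 1.65 and 5.59 RPKM in E6 (5 and 24 reads) and 0 in 12-43. The E6 replicates of this model were far apart, and the higher of them reached nearly the dhc2 level. Model 1052521, at a recovered 108 nucleotides the shortest of the 88, had 3.87 and 5.35 RPKM in dhc2 and 2.01 and 1.42 in E6. Its recovered reads were 6 and 8 in dhc2 and 2 in each E6 library. All are even, and a shorter length with fewer reads lay below the lowest length searched, so its length and reads are uncertain.

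Model 236154 had 2.25 and 3.19 RPKM in dhc2, against 1.48 and 0.653 in E6. Model 1147601, the best sampled of the 5, had 52 and 54 reads in dhc2, against 23 in each E6 library. Model 1088509 had 23 and 25 reads in dhc2, against 2 and 7 in E6. In 4 of the 5 models both dhc2 libraries were under 5.5 RPKM, and none of the 5 was without E6 reads, so no model above the limit in dhc2 was at 0 in both other strains. The size of this class depends on single 12-43 libraries: it would hold 9 models without 12-43 replicate 1 and 8 without 12-43 replicate 2.

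Models read in both dhc2 and E6 numbered 27, with mean levels of 2.45 to 31.1 RPKM and a median of 7.84; 9 of them reached 10 RPKM. Model 1037814 was the most abundant, with 20.1 and 22.9 RPKM in dhc2 (129 and 142 reads), 42.5 and 39.0 RPKM in E6 (175 and 227 reads) and 0 in 12-43. Model 1203041 had 26.8 and 27.4 RPKM in dhc2 and 13.4 and 14.2 in E6. The libraries of dhc2 and E6 were clearly apart in both models, in opposite directions. Model 1321565, at 18.0 and 17.7 RPKM in dhc2 and 15.3 and 15.7 in E6, had groups that lay close together without overlapping. At these levels 1321565 would have given 541 reads in 12-43, the most of this class.

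Since the rule asked the same of dhc2 and of E6, it set no direction between them. The difference between dhc2 and E6 was tested with limma on log2(RPKM + 0.5) over all 12484 models that passed a filter on low values. The fit also held the libraries of the strain without reads, which the rule leaves without spread in these models. Those libraries entered the residual variance and the mean level, so the SEs and adjusted p-values of these models are not independent of the rule. The fit of the dhc2 and E6 libraries alone, given below, leaves them out. All 27 models passed; of the models read in 1 strain alone, which get no test because the rule chose them by this difference, 58 of 61 passed. At a Benjamini-Hochberg adjusted p below 0.05, 14 of the 27 models (51.9%) differed between dhc2 and E6, against 62.7% of all tested models. Higher in dhc2 were 3 models (11.1%), against 31.6% of all tested, and lower in dhc2 were 11 (40.7%), against 31.2%. Without scaling of the RPKM between libraries the split was 5 higher and 9 lower. The median log2 difference was -0.24, against -0.003 over all tested models, and the median size was 0.51, against 0.54. The dhc2 and E6 libraries did not overlap in 21 of the 27 models (77.8%), against 84.5% of all tested. The share called in either direction was somewhat below that of all models; the split by direction leaned further to lower in dhc2 than it did over all models, and neither share was tested against theirs. In bulk mycelium, fewer cells that express a gene and less of its RNA per cell cannot be told apart.

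**Figure D3:**
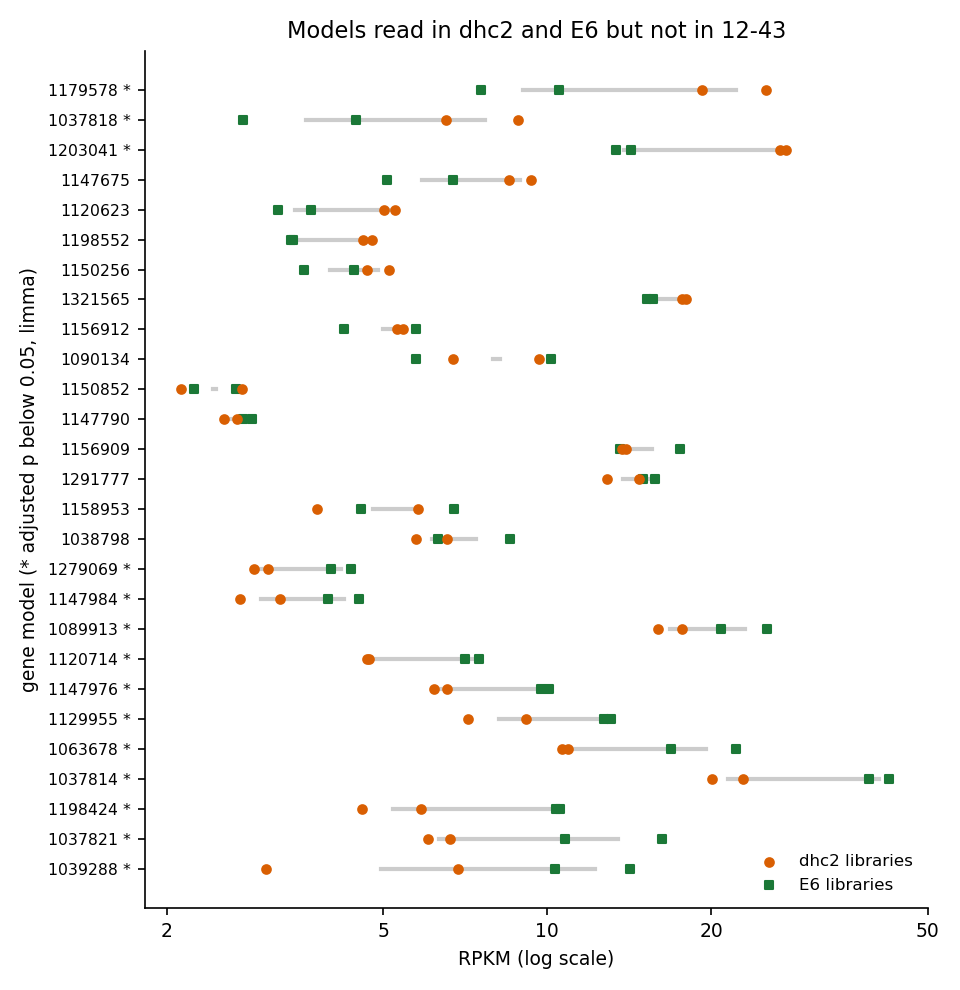
RPKM on a log scale (x axis) of the 27 models read in dhc2 and E6, 1 row each, with 2 points for the dhc2 libraries, 2 squares for the E6 libraries and a grey bar between the group means; asterisks mark the 14 models with an adjusted p below 0.05 by limma. The 3 called models at the top are higher in dhc2 and the 11 at the bottom are lower in dhc2, with the 13 others between them.

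The 3 models higher in dhc2 were 1179578, 1037818 and 1203041. Model 1179578 had 25.2 and 19.2 RPKM in dhc2, against 7.55 and 10.5 in E6, a log2 difference of 1.17 (SE 0.21, adjusted p = 0.0025 by limma). For 1203041 the log2 difference was 0.86 (SE 0.14, adjusted p = 0.0014 by limma). Model 1037818 had 8.86 and 6.51 RPKM in dhc2, against 2.76 and 4.45 in E6, a log2 difference of 0.93 (SE 0.25, adjusted p = 0.014 by limma). This last call rests on single libraries: its adjusted p was 0.0997 without dhc2 replicate 1 and 0.081 without E6 replicate 1.

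Among the 11 models lower in dhc2, the largest difference was that of 1039288, with 6.85 and 3.04 RPKM in dhc2, against 14.2 and 10.3 in E6, a log2 difference of -1.39 (SE 0.34, adjusted p = 0.0095 by limma; 0.094 without E6 replicate 1). Model 1037821 had 6.05 and 6.62 RPKM in dhc2, against 16.3 and 10.8 in E6, a log2 difference of -1.10 (SE 0.21, adjusted p = 0.0035 by limma). Model 1198424 had 5.87 and 4.57 RPKM in dhc2, against 10.5 and 10.4 in E6, a log2 difference of -1.03 (SE 0.18, adjusted p = 0.0019 by limma). The libraries did not overlap in any of these 3 models, though each rests on 67 reads or fewer per library.

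For 1037814, whose values are given above, the log2 difference was -0.999 (SE 0.14, adjusted p = 0.00074 by limma). Model 1063678 had 10.9 and 10.7 RPKM in dhc2, against 22.2 and 16.9 in E6, a log2 difference of -0.90 (SE 0.17, adjusted p = 0.0033 by limma). The other 6 lower models had log2 differences of -0.73 to -0.51. Log2 differences reached a size of 1 in 4 of the 27 models when all are counted.

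Among the 13 models without a call, 1321565 had a log2 difference of 0.11 (SE 0.14), 1156909 of -0.24 (SE 0.17) and 1291777 of -0.24 (SE 0.15). Model 1156909 had 13.7 and 14.0 RPKM in dhc2, against 17.5 and 13.6 in E6, and 1291777 had 12.9 and 14.7 in dhc2, against 14.99 and 15.8 in E6. The groups overlapped in 1156909 and lay next to each other in 1291777. Model 1089913, at 17.7 and 16.0 RPKM in dhc2, against 25.4 and 20.8 in E6, and model 1129955, at 9.13 and 7.17, against 12.7 and 13.1, complete the 10 most abundant of this class and were among the lower calls.

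A pair of the settings tried kept fewer than 6 of these 14 calls. A filter at a mean of 50 reads left 10 of the 27 models in the test and called 6, of which 5 were among the 14. With the dhc2 and E6 libraries alone, 16 of the 27 were called, all 14 among them, and the SE was smaller than with all 6 libraries in 26 of the 27. Without dhc2 replicate 1, and likewise without dhc2 replicate 2, 9 were called. With the FastQC library division as a covariate, 3 of the 27 were called (1037814, 1198424 and 1203041), against 38.1% of all tested models. Since that covariate is estimated from the pair of 12-43 libraries, both at 0 here, the log2 differences stayed as they were and only the errors grew. The division coincides with the difference between dhc2 and E6, so the strain difference and the division cannot be told apart by these 4 libraries alone.

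Replicates of these models scattered more than those of other models at 2 RPKM or more. The SD of the log2 ratio between dhc2 replicates was 0.337 for the 27 models read in both strains and 0.184 for all other models. Between E6 replicates it was 0.355 for the 27 models and 0.379 for the 56 read in E6 alone, against 0.280 for all other models. These models also had lower levels and shorter recovered coding lengths than the rest, and the part of depth in the spread was not tested.

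The same rule can be put to the other groups, each of which has its own depth: the denominators sum to 28230168 reads in dhc2, 22222522 in E6 and 22824443 in 12-43. At 0 in both dhc2 libraries were 51 models, of which 43 were read in E6 alone, 7 in 12-43 alone and 1 in both. At 0 in both E6 libraries were 44 models, of which 6 were read in dhc2 alone, 14 in 12-43 alone and 24 in both. Strain 12-43, with nearly the depth of E6, had 88. The 29 models that are at 0 in dhc2 and in 12-43 and read in E6 alone make up 67.4% of the 43 and 51.8% of the 56; they are counted in both by construction. Thus 27 models at 0 in 12-43 were read in both other strains, against 24 at 0 in E6 and 1 at 0 in dhc2 by the same rule. No test was made of these counts.

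**Figure D4:**
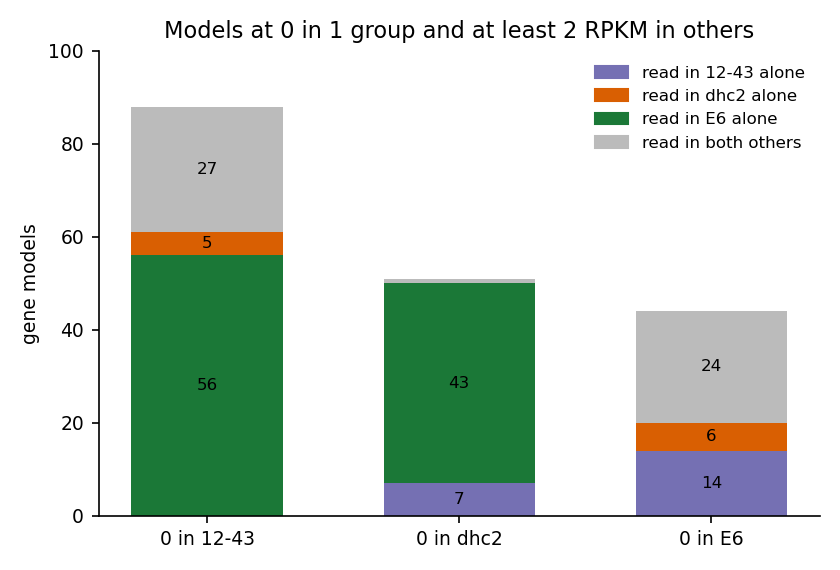
Bars give the number of gene models (y axis) at exactly 0 in both libraries of the group named on the x axis and at least 2 RPKM in both libraries of another group, divided by which groups read them. The bar of 12-43 holds 88 models, that of dhc2 51 and that of E6 44.

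Positions came from RefSeq's gene list for assembly Schco3, made from strain H4-8. It placed 3634 of the 14652 models (24.8%) and 20 of the 88 (22.7%), on 10 of 22 scaffolds: 13 read in E6 alone, 2 in dhc2 alone and 5 in both. None of the 20 has a gene symbol, and the table gives no products, so the models are named here by identifier and their functions are not described. Gene order was read from that table, whose build the files do not name, and no coordinates are given. Scaffolds were inferred: a new one was begun wherever the start position fell by more than 50000 bases from one gene to the next. A scaffold named here may therefore join neighbouring ones. The stretches described here were picked after their values were seen.

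The largest group of placed models lay on a scaffold of 1483 genes, where 5 of the 20 fell within 187 genes of each other. In order along the scaffold they were 1088509 (read in dhc2 alone), 1198424 and 1037821 (read in both), 1120618 (read in E6 alone, with 1.75 and 2.04 RPKM in dhc2) and 1198552 (read in both). The 28 other tested models placed in that stretch differed from 12-43 more than placed models did in general. Their median absolute log2 difference was 1.28 for dhc2 minus 12-43, against 0.448 over 2969 placed models, and 1.35 for E6 minus 12-43, against 0.523. For dhc2 minus E6 it was 0.395, against 0.560. Both comparisons with 12-43 share its libraries.

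Several of these neighbours came close to the rule themselves. Model 1120486, next to 1198424 in the gene order, had 345 and 365 reads in dhc2, 210 and 312 in E6 and 1 and 0 in 12-43. Model 1147558, which is 10 genes further along, had 31 and 39 reads in dhc2, 58 and 91 in E6 and 1 and 0 in 12-43. Model 233900, which missed the limit of 2 RPKM most narrowly, also lies in the stretch. Of the 28 models, 4 (14.3%) had at most 3 reads over both 12-43 libraries, against 25 of the 2969 (0.842%).

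Another 3 models, 1160926, 1160956 and 1160960, fell within 22 genes of each other on the scaffold of 716 genes that also holds bbr2. They were at places 683 to 704, whereas bbr2 was at place 70. All 3 were read in E6 alone: 66 and 80 reads in E6 for 1160926, 38 and 55 for 1160956 and 71 and 80 for 1160960, with 1 dhc2 read in all, in 1160926. Around 1160956, the 13 nearest placed models had a median absolute log2 difference of 0.172 for dhc2 minus 12-43, 0.910 for E6 minus 12-43 and 0.930 for dhc2 minus E6. Those 13 models span 71 genes. Only 3 other tested models lay between the members. Their medians were 0.106 for dhc2 minus 12-43, 0.207 for E6 minus 12-43 and 0.243 for dhc2 minus E6, each below that of all placed models. Among them, 237618 had log2 differences of 1.24 for E6 minus 12-43 and -1.64 for dhc2 minus E6. For E6 minus 12-43, 112969 had 0.060 and 1039421 had -0.207. So few models cannot show whether E6 stood apart within the stretch as it did over the wider neighbourhood. Model 237622, between 1160956 and 1160960, was at 0 in dhc2 and in 12-43 and had 3 and 8 reads in E6, too few for the limit.

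**Figure D5:**
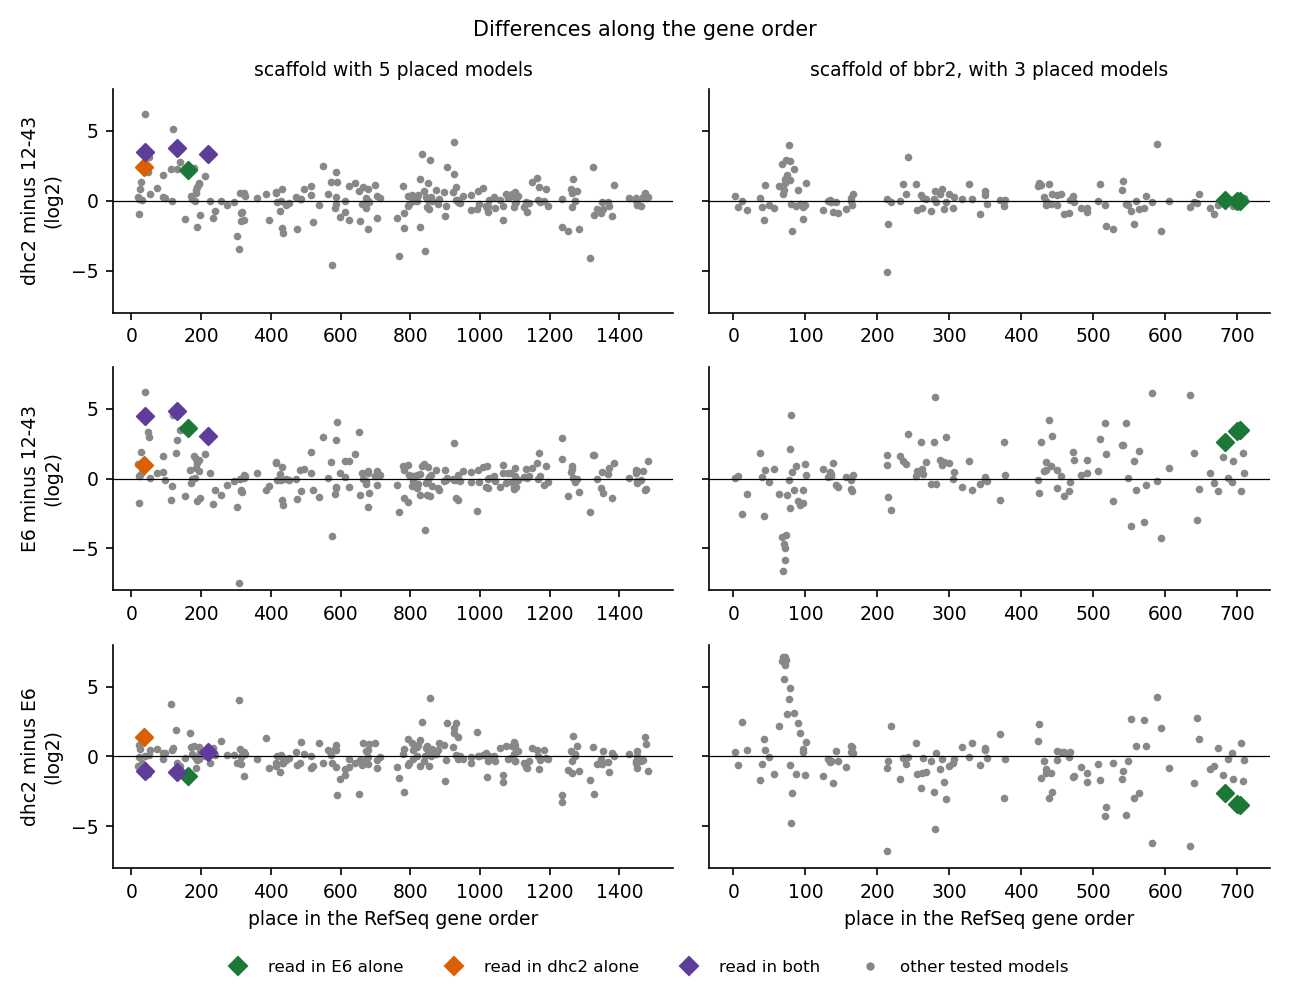
Log2 differences (y axes) of tested models by their place in the RefSeq gene order (x axes) on the scaffold with 5 of the placed models (left) and on that of bbr2 (right), for dhc2 minus 12-43, E6 minus 12-43 and dhc2 minus E6 from top to bottom; coloured diamonds are models without reads in 12-43 and grey points other tested models. On the left the 5 diamonds lie above 0 in both comparisons with 12-43, within the first 221 places and among other models above 0. On the right the 3 diamonds lie at 0 for dhc2 minus 12-43 and above 0 for E6 minus 12-43. No diamond can fall below 0 in a comparison with 12-43, because the rule holds that strain at 0.

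Models 269858 and 269851 were the pair placed directly next to each other. Model 269858 had 46 and 64 reads in E6 and none elsewhere, and 269851 had 51 and 77 in E6 with 1 in each dhc2 library. Before them in the gene order stood 269864, 104345 and 269862, which had 0 to 7 reads per library in dhc2, 141 to 389 in E6 and 0 to 3 in 12-43. They were kept out of the 88 by those few 12-43 reads. The next placed model after the pair, 255660, was read in all 6 libraries, with 46.6 to 52.8 RPKM in dhc2, 84.4 and 89.5 in E6 and 71.3 to 95.5 in 12-43.

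Elsewhere the neighbours of single models varied. Model 1152377, at 13.5 and 14.5 RPKM in E6, lay between 1300522 and 1300596, which were read in all 6 libraries. By contrast, model 231731, the placed model before 1337624, had no read in dhc2, 5 and 10 reads in E6 and 1 and 0 in 12-43. Model 1158954, directly after 1158953, had 28 and 11 reads in dhc2, 30 and 23 in E6 and 0 and 1 in 12-43, and 1105168, directly after 237701, had at most 1 read in any library. Model 1262236 lay between 83696 and 1194301; model 1194301 had 85.5 and 87.4 RPKM in dhc2, 118 and 145 in E6 and 29.3 and 24.5 in 12-43. Around 1243053, read in E6 alone, the 13 nearest placed models had median absolute log2 differences of 0.434 for dhc2 minus 12-43, 2.00 for E6 minus 12-43 and 2.03 for dhc2 minus E6. Model 1129955, read in both strains, had 10 such neighbours with medians of 1.30, 2.03 and 0.818 in the same order.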

How the data were processed

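The authors deposited RPKM per gene model, written with decimal commas per the file headers; each file also carries FastQC 0.9.2 output for its raw reads. TopHat, DESeq and edgeR are named in the submitters' processing notes. Not given in the sources used here are aligner settings, counting rules, strand, build and annotation, so overlapping, antisense or near-identical genes may share reads. Libraries were mRNA-based, with single reads of 50 bases per the labels' protocols, whereas the FastQC output gives a length of 51 in every library.

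Whole reads, library denominators and coding lengths were recovered from the steps in the RPKM values. All 13715 models with a value came out whole within 0.0005 reads. Recovered reads and lengths are the smallest that fit from the lowest length searched upward. Expected reads and fold bounds are therefore low rather than high, and the floors of single models in RPKM high rather than low. Model 1052521, where a length below the search limit also fits, may be an exception. The denominators were 46.0% to 58.7% of raw reads. A floor of 3 reads is 0.209 to 0.342 RPKM at 1 kb.

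RPKM were scaled by trimmed means of M values (factors 0.957 to 1.055). Models entered with at least 0.744 CPM in 2 libraries and 15 reads in all. Differences were tested on log2(RPKM + 0.5) by limma 3.58.1 under R 4.3.3, the variance trended on level, all 6 libraries in 1 fit (3 residual degrees of freedom), two-sided, with Benjamini-Hochberg adjustment. This scale understates changes of low genes. Recovery and fit were checked on simulated data.

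The models and lists were chosen with earlier results of these data known. Named were the 10 most abundant models of each class, the 3 nearest to the limit on either side, the 5 largest called differences in each direction, and models singled out after their values were seen for discordant libraries, length or gene order. Planned classes by product could not be applied. Same-numbered libraries were not paired by the labels.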

Additional observations from a re-analysis of the deposited data

How the results depend on the processing

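The number of models at 0 in 12-43 follows the rule. With a limit of 5 RPKM it was 50, of which 32 were read in E6 alone and 14 in both, and with a limit of 1 RPKM it was 103. Allowing 1 read in each 12-43 library gave 132, with 44 read in both and 8 in dhc2 alone, and held all 88. Leaving out 1 library at a time gave 88 to 124 models, 124 without 12-43 replicate 1 and 106 without 12-43 replicate 2, and 4 to 9 read in dhc2 alone.

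Calls for dhc2 minus E6 numbered 7833 over all models. They were 4756 with the library covariate, and 3 of the 27 models read in both. Where a mean of 50 reads was required, 10 of the 27 were tested and 6 called. Leaving out 1 library at a time left 9 to 14 of the 27 and 5892 to 8205 of all; both values of 9 came without a dhc2 library, where the lone library is assumed to vary like the other groups. Pseudocounts of 0.1 and 2 gave 12 and 16, voom on the recovered reads gave 13. None of the 8 named differences between dhc2 and E6 changed sign in the alternatives run.

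Same-numbered libraries did not deviate together (r = -0.001 for dhc2 and E6, 0.003 for dhc2 and 12-43, 0.025 for E6 and 12-43). With the replicate block, 7645 of all models and 14 of the 27 were called.

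Depth limits the shortest models most: 1052521 would have given 11.4 reads in 12-43 at its recovered length, which is uncertain.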
